A study of Homo sapiens with 8 samples.

Results

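The matrix metalloproteinases MMP2, MMP14, MMP15, MMP16 and MMP17, their inhibitors TIMP1, TIMP2, TIMP3 and TIMP4, and the membrane-anchored inhibitor RECK were followed across 3 culture substrates. The 10 genes were taken by name from a list that was chosen with earlier results of these data known. All 10 were among the 18201 genes that had enough counts to be tested. The cells were oligodendrocyte progenitor cells (OPCs) of H9 origin (H9 is an established line of human embryonic stem cells), obtained by neural induction with retinoic acid and inhibitors of BMP and TGF-beta receptors, followed by a Smoothened agonist. They were kept for 2 days on Matrigel, a basement membrane extract that served as the control, on VN (recombinant vitronectin), or on VNP2, a peptide designed from the vitronectin sequence. The paper describes its designed peptides as recombinant fusions with mussel adhesive protein, fixed to chemically activated vessels. Effects of the peptide, the carrier protein and the coating cannot be told apart in the VNP2 group. No group received SOX10, the transcription factor that the study forced elsewhere to obtain oligodendrocytes, and all 8 libraries came from 1 cell line. Polyadenylated RNA was sequenced in 2 Matrigel libraries (replicates 2 and 3), 3 VN libraries and 3 VNP2 libraries.

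Matrix metalloproteinases are zinc-dependent proteases that cut extracellular matrix and cell surface proteins, and they are made as inactive proenzymes. MMP2 is secreted, whereas MMP14, MMP15, MMP16 and MMP17 stay at the cell membrane, and MMP14 activates proMMP2 at the cell surface in a complex for which TIMP2 is the bridge. The TIMP proteins block the active site of the proteases, and TIMP3 stays bound to the matrix and also inhibits some ADAM and ADAMTS proteases. In the oligodendrocyte lineage metalloproteinases have been linked to process outgrowth and myelin formation.

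The libraries held 37997896 to 39429453 estimated counts. The progenitor factors OLIG1 and OLIG2 were present in every library, at 47.6 to 70.1 and 40.0 to 54.6 TPM (a level per transcript length, scaled to the same total in each library), whereas SOX10 was listed at 0 in both Matrigel libraries and reached at most 0.0778 TPM elsewhere. Of the 12 OPC markers 10 were tested, of which 5 were higher on VN than on Matrigel and 7 on VNP2, with none lower, and their summed level was 565.4 to 572.2 TPM on Matrigel, 672.0 to 701.2 on VN and 676.1 to 701.3 on VNP2. Of all tested genes 5.66% were higher on VN and 7.44% on VNP2 than on Matrigel, and 9.6% and 9.13% were lower. Markers of other cell types were also read. Among the 12 genes of the mesenchyme and fibroblast list, VN had 3 higher and 2 lower than Matrigel, VNP2 had 6 higher and 2 lower, and the sum was 522.9 to 532.9, 591.8 to 630.4 and 517.0 to 551.4 TPM in the same order. The smooth muscle and pericyte list differed between substrates, from 616.1 to 644.1 TPM on Matrigel to 172.8 to 183.6 on VN and 143.4 to 173.3 on VNP2. TAGLN alone went from 485 to 510 TPM down to 92.2 to 125 on the other substrates, while the defining smooth muscle genes MYH11 and DES never passed 0.12 and 0.273 TPM. Microglia and macrophage markers summed to at most 0.525 TPM, none of the 7 was tested, and P2RY12 was at 0 throughout.

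Across the 3 substrates 6 of the 10 genes changed (adjusted p under 0.05, edgeR quasi-likelihood test), where 19.3% of all tested genes did. On VN, 4 were lower than on Matrigel and none higher. Of all genes 15.3% changed in that comparison, 9.6% downward and 5.66% upward. On VNP2, 4 were lower than on Matrigel and 2 higher, against 16.6% of all genes changed, 9.13% lower and 7.44% higher. Between the vitronectin substrates 2 were higher on VNP2 and none lower, where 5.1% of all genes changed, 3.09% upward and 2.01% downward. The median log2 fold change of the 10 genes was -0.121 on VN against Matrigel, -0.15 on VNP2 against Matrigel and -0.00967 on VNP2 against VN, beside 0.00436, 0.00243 and 0.000729 over all genes. Both comparisons with Matrigel use the same 2 control libraries and are not independent of each other.

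**Figure D1:**
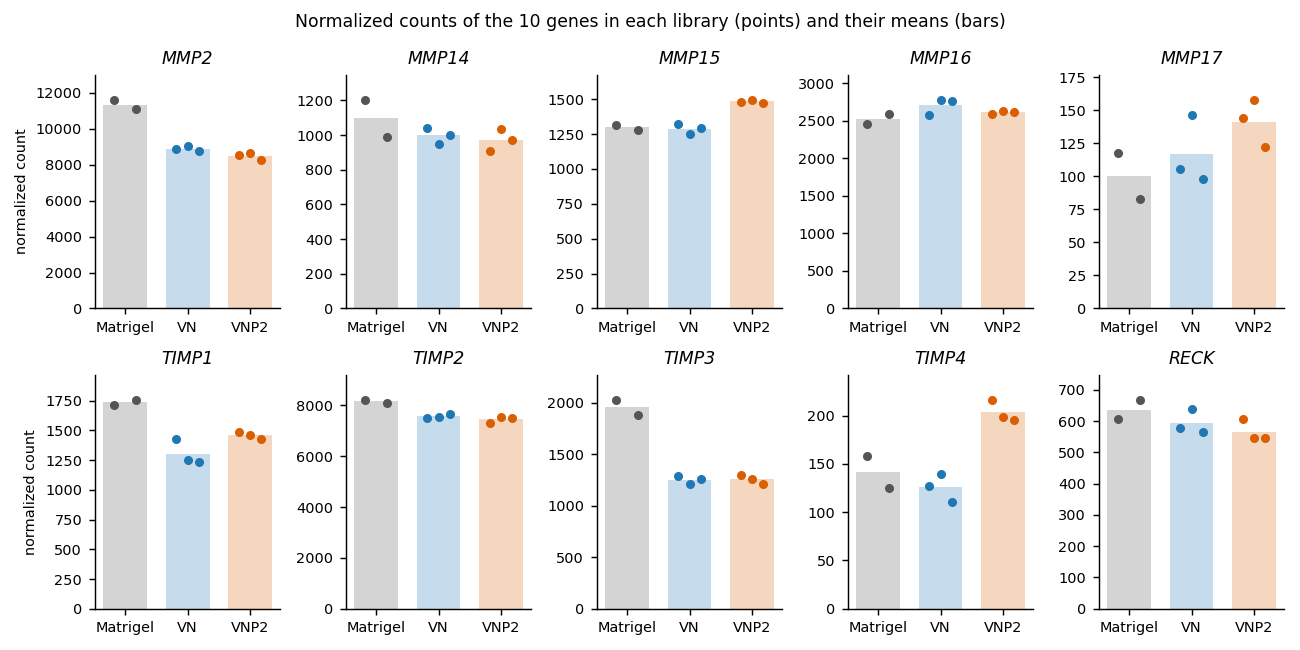
Normalized counts (vertical axes, each from 0) of the 10 genes in every library, with 2 points for Matrigel and 3 each for VN and VNP2, and bars at the group means. MMP2 and TIMP3 are highest on Matrigel in every library, while TIMP4 and MMP15 are highest on VNP2.

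MMP2 (gelatinase A), which cuts denatured collagens and collagen IV, was the most abundant protease of the set and fell on both vitronectin substrates. Its normalized counts, which are estimated counts scaled for library size and transcript length, were 11630 and 11080 on Matrigel, 8888, 9067 and 8751 on VN, with 8565, 8679 and 8285 on VNP2. Both Matrigel libraries lay above all 6 others, and the 3 VNP2 libraries lay below the 3 VN libraries. MMP2 fell by 21.6% on VN (log2 fold change -0.352, SE 0.037, adjusted p = 0.000145) and fell by 25.1% on VNP2 (-0.417, SE 0.037, adjusted p = 2.89e-05). Between VNP2 and VN the difference of -0.065 did not pass the test (95% interval -0.139 to 0.00926, adjusted p = 0.324). In RNA from a whole culture, fewer cells of a type and less RNA per cell cannot be told apart. Of the 8 tested smooth muscle and pericyte markers 4 were also lower on each vitronectin substrate, while CSPG4 was higher on VNP2 (0.662, adjusted p = 0.00732). Of the 12 mesenchyme and fibroblast markers, 3 were higher and 2 lower on VN, and 6 were higher and 2 lower on VNP2. The part of either list in the change of MMP2 was not tested.

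MMP14, the membrane protease that activates proMMP2, passed no test between substrates. Its normalized counts were 1205 and 987.1 on Matrigel, 1040, 951.5 and 1003 on VN, with 907.1, 1038 and 974.1 on VNP2. The groups overlapped, with the lower Matrigel library inside the range of both vitronectin substrates. The log2 fold changes were -0.132 on VN (95% interval -0.331 to 0.0671, adjusted p = 0.364) and -0.171 on VNP2 (-0.37 to 0.0288, adjusted p = 0.244). The fall of MMP2 on the same substrate lay outside each interval. The intervals of MMP2 itself (-0.434 to -0.269 on VN and -0.499 to -0.334 on VNP2) overlapped those of MMP14. Whether the 2 genes differed in their change was not tested.

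MMP15, a membrane-type protease of the same subfamily, was higher on VNP2 than on either other substrate. Its normalized counts were 1318 and 1279 on Matrigel, 1325, 1248 and 1295 on VN, with 1482, 1497 and 1476 on VNP2. All 3 VNP2 libraries lay above the other 5, which overlapped. In TPM the VN libraries (15.97, 15.45 and 16.06) lay above the Matrigel libraries (15.22 and 14.87). MMP15 rose by a log2 fold change of 0.194 (SE 0.0502, adjusted p = 0.0241) from Matrigel and by 0.204 (SE 0.0446, adjusted p = 0.0262) from VN, a difference of 15.2% in the second case, while VN differed from Matrigel by -0.0101 (95% interval -0.122 to 0.102, adjusted p = 0.92). The call against Matrigel was lost without Matrigel replicate 2 (adjusted p = 0.0813) or 3 (0.168), without VNP2 replicate 1 (0.0592), 2 (0.0702) or 3 (0.0597), and with no filter (0.0532). The call against VN was lost without VN replicate 2 (0.0963) or 3 (0.0771) and without VNP2 replicate 1 (0.0883), 2 (0.0871) or 3 (0.0842).

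The 300 bases around the start of MMP15 are shown because this gene rose on VNP2 alone. They run from 250 bases before the RefSeq start to 50 after it (GRCh38.p14, chr16:58025504-58025803, plus strand), and capitals mark the Sp1 motif GGGCGG on either strand, which occurred 5 times here and at least once in 44.6% of 27305 promoters of that length.
MMP15: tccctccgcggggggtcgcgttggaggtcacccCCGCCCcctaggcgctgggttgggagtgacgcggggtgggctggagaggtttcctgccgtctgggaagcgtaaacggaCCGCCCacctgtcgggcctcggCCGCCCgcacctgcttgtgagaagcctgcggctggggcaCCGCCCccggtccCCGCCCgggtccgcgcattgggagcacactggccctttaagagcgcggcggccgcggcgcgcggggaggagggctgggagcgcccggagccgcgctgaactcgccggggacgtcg

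MMP16 and MMP17, the other membrane-type proteases of the list, passed no test between substrates. MMP16 had normalized counts of 2458 and 2584 on Matrigel, 2573, 2781 and 2764 on VN, with 2588, 2626 and 2618 on VNP2. The VN libraries overlapped Matrigel, and the VNP2 libraries began just above it. Its log2 fold changes were 0.103 on VN (adjusted p = 0.181) and 0.0507 on VNP2 (adjusted p = 0.544), and the first passed only without VN replicate 1 (0.141, adjusted p = 0.0375). MMP17, which is attached to the membrane by a lipid anchor, was the least abundant of the 10, at 117.8 and 82.56 on Matrigel, 105.3, 146.7 and 98.0 on VN, with 144.0, 158.0 and 121.8 on VNP2. All 3 VNP2 libraries lay above both Matrigel libraries, but the log2 fold change of 0.497 had an SE of 0.221 and an adjusted p of 0.166. Without the correction for transcript length MMP17 was called on both substrates, at 0.494 on VN (adjusted p = 0.0398) and 0.828 on VNP2 (adjusted p = 0.00218).

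Among the TIMP genes, 3 fell on both vitronectin substrates and 1 rose on VNP2. TIMP3, the inhibitor that stays bound to the matrix, fell the most of the 10 genes. Its normalized counts were 2027 and 1880 on Matrigel, 1293, 1210 and 1259 on VN, with 1300, 1257 and 1208 on VNP2. The Matrigel libraries stood well above the other 6, and VN and VNP2 overlapped. TIMP3 fell by 35.8% on each, with log2 fold changes of -0.64 on VN (SE 0.0568, adjusted p = 4.33e-05) and -0.638 on VNP2 (SE 0.0568, adjusted p = 2.91e-05). The difference between VNP2 and VN was 0.00122 (95% interval -0.115 to 0.117, adjusted p = 0.993).

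TIMP1, a soluble inhibitor with activity against most secreted metalloproteinases, had normalized counts of 1713 and 1756 on Matrigel, 1424, 1252 and 1235 on VN, with 1488, 1465 and 1424 on VNP2. Matrigel was above both, and the VN and VNP2 libraries met at 1424. TIMP1 fell by 24.8% on VN (log2 fold change -0.411, SE 0.0651, adjusted p = 0.00212) and fell by 15.9% on VNP2 (-0.249, SE 0.0648, adjusted p = 0.0244). The second call was lost without Matrigel replicate 2 (adjusted p = 0.106) or 3 (0.153) and without VNP2 replicate 2 (0.0595) or 3 (0.0849). VNP2 exceeded VN by 0.162, which did not pass the test (adjusted p = 0.163) unless VN replicate 1 was left out (0.232, adjusted p = 0.0141). As for MMP2, the summed smooth muscle and pericyte markers were also lower in the 6 libraries in which TIMP1 and TIMP3 fell. TAGLN was the largest part of that sum. The summed mesenchyme and fibroblast markers were higher on VN than on Matrigel and overlapped Matrigel on VNP2. The part of either list in the changes was not tested.

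TIMP2, which both inhibits MMP2 and bridges its proenzyme to MMP14, moved least of the called genes. Its normalized counts were 8219 and 8114 on Matrigel, 7507, 7551 and 7651 on VN, with 7326, 7563 and 7499 on VNP2. In normalized counts Matrigel did not overlap the others, whereas VN and VNP2 did. In TPM, however, Matrigel (108.3 and 107.7) and VN (103.2, 106.6 and 108.3) overlapped, so the small fall on VN depended on the scale. TIMP2 fell by 7.31% on VN (log2 fold change -0.11, SE 0.0328, adjusted p = 0.0478) and fell by 8.62% on VNP2 (-0.13, SE 0.0328, adjusted p = 0.0212). The call on VN was lost in 13 of 18 other ways of fitting, among them without either Matrigel library (adjusted p = 0.258 and 0.165 without replicates 2 and 3), VN replicate 2 (0.107) or 3 (0.0864), or VNP2 replicate 1 (0.0663), 2 (0.0716) or 3 (0.0862), and that on VNP2 in 4, which left out Matrigel replicate 2 (0.17) or 3 (0.101) or VNP2 replicate 1 (0.0745) or 3 (0.0667).

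TIMP4 went the other way and was higher on VNP2. Its normalized counts were 158.2 and 125.3 on Matrigel, 127.3, 139.4 and 110.9 on VN, with 216.3, 198.7 and 195.7 on VNP2. All 3 VNP2 libraries lay above the other 5, and Matrigel and VN overlapped. TIMP4 rose 1.62-fold from VN (log2 fold change 0.693, SE 0.131, adjusted p = 0.0127) and 1.44-fold from Matrigel (0.522, SE 0.147, adjusted p = 0.0352), and on VN it differed from Matrigel by -0.171 (95% interval -0.503 to 0.161, adjusted p = 0.492). The call against Matrigel was lost in DESeq2 (adjusted p = 0.0511), without Matrigel replicate 3 (0.364, adjusted p = 0.251) and without VNP2 replicate 1 (0.0965), 2 (0.0708) or 3 (0.0645), and that against VN without VN replicate 3 (0.0513) or VNP2 replicate 1 (0.0568).

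The promoters of TIMP1, TIMP3 and TIMP4 are shown to set inhibitors that fell beside the inhibitor that rose. TIMP2, which also fell, had no promoter sequence available here. The windows are those used for MMP15 (RefSeq, GRCh38.p14), at chrX:47582186-47582485, plus strand, chr22:32801455-32801754, plus strand, and chr3:12158863-12159162, minus strand. Capitals mark the Sp1 motif and the ETS motif AGGAAG, which 33.7% of all such promoters hold.
TIMP1: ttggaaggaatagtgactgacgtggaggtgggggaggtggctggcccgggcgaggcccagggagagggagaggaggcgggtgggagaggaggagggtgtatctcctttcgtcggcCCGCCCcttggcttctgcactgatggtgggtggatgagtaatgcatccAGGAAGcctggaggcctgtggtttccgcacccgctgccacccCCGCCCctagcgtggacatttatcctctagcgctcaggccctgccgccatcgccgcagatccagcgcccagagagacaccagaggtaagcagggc
TIMP3: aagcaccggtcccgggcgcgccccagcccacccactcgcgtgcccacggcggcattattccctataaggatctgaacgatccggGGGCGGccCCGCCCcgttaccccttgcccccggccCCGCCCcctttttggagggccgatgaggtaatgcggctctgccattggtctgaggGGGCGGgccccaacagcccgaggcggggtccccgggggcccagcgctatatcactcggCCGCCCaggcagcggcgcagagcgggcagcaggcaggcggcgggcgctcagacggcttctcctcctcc
TIMP4: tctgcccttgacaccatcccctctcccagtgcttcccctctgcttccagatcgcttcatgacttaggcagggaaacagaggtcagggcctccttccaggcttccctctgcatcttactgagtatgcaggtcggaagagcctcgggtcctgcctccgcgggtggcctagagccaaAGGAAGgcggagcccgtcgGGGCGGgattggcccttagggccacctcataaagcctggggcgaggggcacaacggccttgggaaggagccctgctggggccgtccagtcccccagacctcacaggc

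The Sp1 motif began at -135 and -45 from the start in TIMP1, at -166, -158, -131, -76 and -18 in TIMP3, and at -57 in TIMP4, on either strand. The ETS motif began at -87 in TIMP1 and at -76 in TIMP4 and had no match in the TIMP3 window. The AP-1 motif TGANTCA, the TEAD motif CATTCC and the TATA box TATAAA, found in 7.76%, 14% and 12% of all promoters, had no match in these 3 windows or in those of MMP14, MMP15 and RECK, the other 3 genes whose window was searched. These are exact matches of letters and were set beside no binding data. Variants of the motifs were not searched, so a window without a match may still hold a site. The TIMP1 window holds tgagtaa, a near match of the AP-1 motif, upstream of its ETS motif.

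RECK, an inhibitor anchored to the cell surface that also takes part in WNT7 signalling, changed in no comparison. Its normalized counts were 605.3 and 667.8 on Matrigel, 579.4, 637.6 and 565.3 on VN, with 606.3, 545.9 and 544.6 on VNP2. The 3 groups overlapped. The log2 fold changes were -0.0999 on VN (95% interval -0.286 to 0.0866, adjusted p = 0.472) and -0.171 on VNP2 (-0.357 to 0.0162, adjusted p = 0.212).

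**Figure D2:**
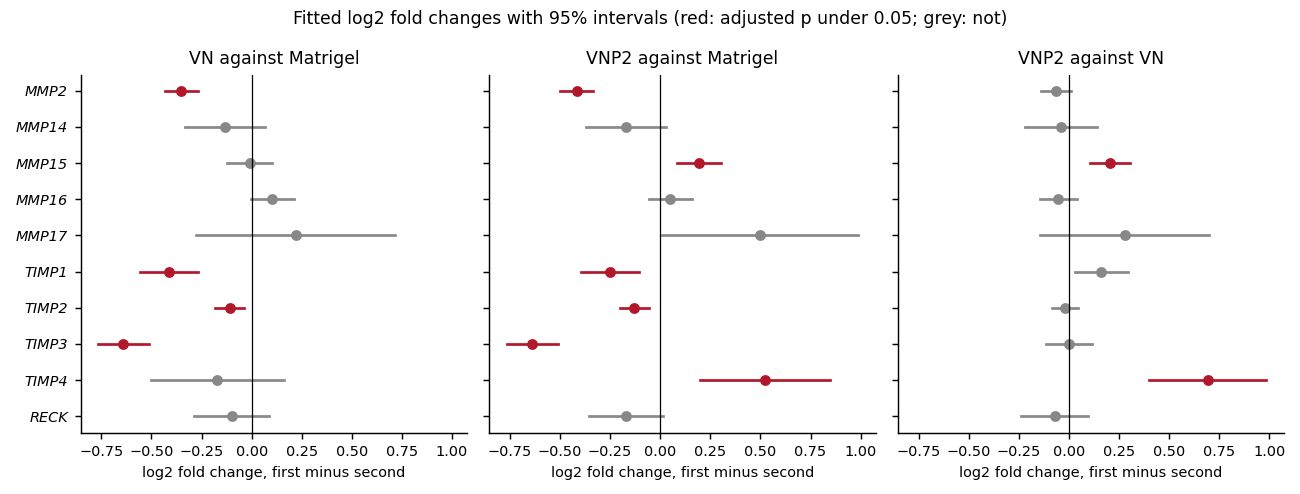
Log2 fold change (horizontal axis, the first substrate minus the second) of the 10 genes in the 3 comparisons, with 95% intervals of the edgeR fit and genes with an adjusted p under 0.05 in red. TIMP3 sits near -0.64 in both comparisons with Matrigel, and TIMP4 reaches 0.693 on VNP2 against VN.

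Per transcript length, MMP2, TIMP2 and TIMP1 were far above the other 7 genes. Over the 8 libraries the mean level was 133.7 TPM for MMP2, 105.5 for TIMP2 and 103.7 for TIMP1, then 16.46 for MMP15, 15.37 for TIMP3, 14.14 for MMP14 and 13.3 for MMP16, followed by 9.378 for RECK, 7.235 for TIMP4 and 3.577 for MMP17. The ranges over libraries of TIMP2 (101.2 to 108.3) and TIMP1 (89.93 to 119.9) overlapped, as did those of each neighbouring pair in this order from MMP15 to MMP16 and those of RECK and TIMP4. MMP2 (119.8 to 159.5) was the highest of the 10 in every library. TIMP3 stood above MMP15 on Matrigel, at 20.29 ± 0.976 against 15.04 ± 0.252 TPM (SD, n = 2), and below it on VNP2, at 13.66 ± 0.452 against 18.03 ± 0.122 (SD, n = 3).

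**Figure D3:**
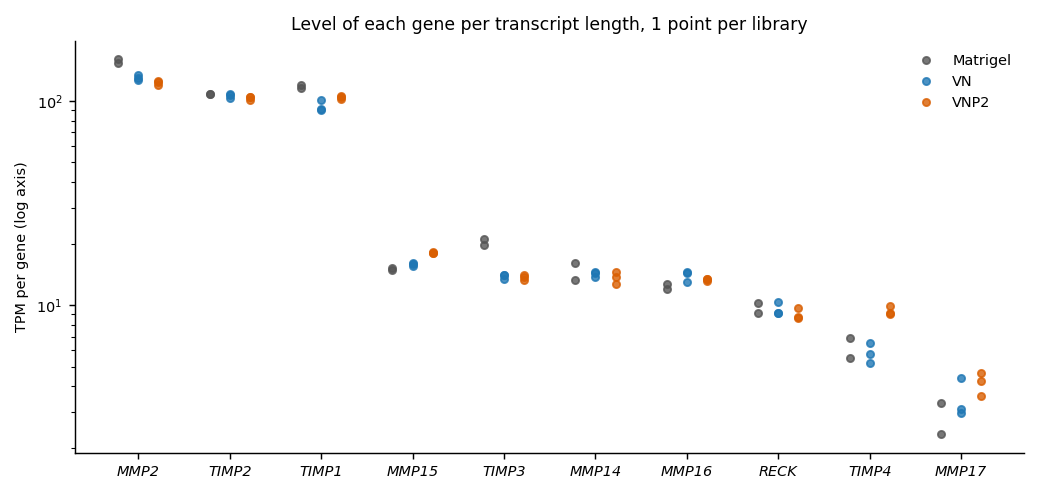
Level of each gene in TPM (vertical axis, logarithmic) with 1 point per library, coloured by substrate and ordered by the mean over all libraries. MMP2, TIMP2 and TIMP1 lie near or above 100 TPM and the other 7 genes between 2.336 and 20.98 TPM.

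The RNA levels of the 5 listed proteases and the inhibitors were then set out as sums and ratios of TPM, which are descriptions without a test. MMP11 (15 to 17.4 TPM) and the membrane-type MMP24 (4.21 to 5.29 TPM) are not in the list and were left out. The summed level of the 5 proteases was 206.1 and 196.1 TPM on Matrigel, 173.7, 181.2 and 176.6 on VN, with 171.2, 175.9 and 168.6 on VNP2. The 4 TIMP genes summed to 252.3 and 252.7, then 223.7, 217.6 and 217.4, and then 230.9, 232.0 and 228.3. Both sums were highest on Matrigel. The ratio of the TIMP sum to the MMP sum was 1.256 ± 0.0452 on Matrigel (SD, n = 2), 1.24 ± 0.0441 on VN and 1.341 ± 0.0192 on VNP2 (SD, n = 3 each), and the 3 VNP2 libraries (1.319 to 1.354) lay above the other 5 (1.201 to 1.288).

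The make-up of each side also differed by substrate. MMP2 gave 77.39 and 78.0% of the summed TPM of the listed proteases on Matrigel, 72.92 to 73.52% on VN and 71.09 to 71.91% on VNP2, so that the groups did not overlap. The 4 listed membrane-type proteases together reached 44.86 ± 2.44 TPM on Matrigel, 47.47 ± 0.751 on VN and 49.21 ± 1.43 on VNP2. TIMP2 per MMP2 was 0.6792 and 0.7039 on Matrigel, 0.8006 to 0.8406 on VN and 0.8223 to 0.8702 on VNP2, and TIMP2 per MMP14 overlapped between groups, from 6.719 to 8.093 over all libraries. On the inhibitor side, the share of TIMP3 in the TIMP sum was 7.756 and 8.313% on Matrigel and 5.781 to 6.434% on the other substrates. TIMP4 gave 2.176 to 2.994% on Matrigel and VN and 3.925 to 4.279% on VNP2, and the ratio of TIMP4 to TIMP3 was 0.3047, 0.4237 and 0.6829 on Matrigel, VN and VNP2.

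The inhibitor genes TIMP1, TIMP3 and TIMP4 lie inside synapsin genes on the opposite strand (GENCODE v29, GRCh38), so the host genes were read beside them. The first (X, 47582313 to 47586789) lies in SYN1 and TIMP3 (22, 32801701 to 32863043) in SYN3, with no shared exon, and TIMP4 (3, 12153051 to 12159351) lies in SYN2 with overlapping exons. SYN1 rose where TIMP1 fell, by 0.864 on VN (adjusted p = 0.0228) and 0.777 on VNP2 (adjusted p = 0.0321). SYN3 passed no test, at 0.123 on VN and 0.227 on VNP2 (adjusted p = 0.689 and 0.442). SYN2 had normalized counts of 93.05 to 94.17 on Matrigel, 97.65 to 108.2 on VN and 86.66 to 103.5 on VNP2, and where TIMP4 rose on VNP2 its log2 fold change was 0.0101 from Matrigel and -0.139 from VN (adjusted p = 0.975 and 0.613). None of the other 7 genes shared exons with a gene of more than 31.94 estimated counts over all libraries.

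For each gene that changed across the substrates, the 2 other genes (mean normalized count of at least 100) with the most similar values over the 8 libraries were named, as a description in which all points share the same libraries. MMP2 was followed most closely by CALD1 and HSPA5 (Pearson r 0.995 each), TIMP3 by CNN3 (0.995) and PRAG1 (0.993), and TIMP1 by RPL36A and SLC2A6 (0.991 each). TIMP2 was followed by NOX4 (0.994) and SORBS3 (0.991), MMP15 by SIX6 (0.991) and MYO1G (0.989), and TIMP4 by GNAI1 (0.969) and C8orf34 (0.968).

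Other genes of the system were read as lists, which were chosen with earlier results of these data known. Beside the lists below, 9.6% of all tested genes were lower and 5.66% higher on VN than on Matrigel. The shares were 9.13% and 7.44% on VNP2 against Matrigel, and 2.01% and 3.09% on VNP2 against VN. Medians over all genes were 0.00436, 0.00243 and 0.000729. Of 18 further MMP genes 14 stayed under 1 TPM in every library, MMP12, MMP20 and MMP27 were at 0, and 6 were tested. On each vitronectin substrate 3 of these 6 were lower than on Matrigel and none higher (medians -0.988 on VN and -0.894 on VNP2), and 1 was higher on VNP2 than on VN (median 0.133). The filter asks for enough counts in only as many libraries as Matrigel, the smallest group, holds. A low gene can thus enter through Matrigel alone, so these counts and medians are partly set by the filter. The members described here fell outside the naming rule and were chosen after their values were seen. MMP10 (a stromelysin) fell from 3.48 to 4.19 TPM on Matrigel to 0.475 to 0.611 on VN and 0.162 to 0.351 on VNP2 (log2 fold changes -2.87 and -3.82, adjusted p = 3.84e-05 and 5.96e-06). MMP19 fell on both, at -1.98 (adjusted p = 0.0196) and -1.76 (adjusted p = 0.0429). It had only 62 estimated counts over all libraries, at 0.318 to 0.397 TPM on Matrigel and at most 0.159 elsewhere. MMP19 may have entered the test through Matrigel alone. MMP11 was as abundant as MMP15, at 15 to 17.4 TPM, and passed no test. MMP9 (gelatinase B) never exceeded 0.127 TPM and was too low to test.

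Among 28 ADAM and ADAMTS proteases, a group of which TIMP3 can inhibit some members, 27 were tested. Which of the listed genes encode proteases that TIMP3 inhibits was not examined here. On VN 1 was higher and 5 lower (median 0.0266), on VNP2 2 were higher and 6 lower (median 0.0625), and on VNP2 against VN 3 were higher and 2 lower (median 0.0138). ADAMTS15, which cuts proteoglycans, fell on VN (-0.796, adjusted p = 8.46e-05) and on VNP2 (-1.53, adjusted p = 6.31e-07), and was lower on VNP2 than on VN (-0.737, adjusted p = 0.00034). ADAM19 fell on both (-0.591 and -0.73, adjusted p = 0.000128 and 1.99e-05), and so did ADAM9 (-0.646 and -0.639, adjusted p = 1.66e-05 and 1.2e-05). ADAMTS3, which processes procollagen, rose on VNP2 by 0.674 from Matrigel (adjusted p = 3.69e-05) and by 0.485 from VN (adjusted p = 0.00058), and ADAMTS9 was higher on VNP2 than on VN (0.412, adjusted p = 0.0251).

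All 22 genes that serve to activate, dock or clear metalloproteinases were tested, and 11 were lower on VN and 11 on VNP2 than on Matrigel, with none higher (medians -0.289 and -0.352). On VNP2 against VN 1 was higher and 3 lower (median 0.00227). Over all genes 9.6% were lower on VN and 9.13% on VNP2 than on Matrigel (medians 0.00436 and 0.00243). THBS1, which binds MMP2 and is cleared with it through LRP1, fell on VN (-1.06, adjusted p = 6.01e-07) and on VNP2 (-1.42, adjusted p = 6.68e-08), and was lower on VNP2 than on VN (-0.353, adjusted p = 0.00167). CLDN1, a tight junction protein, fell on both (-0.846 and -1.21, adjusted p = 0.000405 and 2.52e-05), and CAV2, a caveolar protein, did so too (-0.745 and -0.693, adjusted p = 0.00551 and 0.00635). The endocytic receptor LRP2 and the proprotein convertase PCSK5 were lower on VNP2 than on VN (-0.31 and -0.278, adjusted p = 0.0032 and 0.0223).

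Of 31 proteins that MMP2 or MMP14 can cut, 30 were tested. On VN 6 were higher and 11 lower (median -0.11), on VNP2 8 were higher and 15 lower (median -0.189), and on VNP2 against VN 4 were higher and 8 lower (median -0.0623). IGFBP3, which binds insulin-like growth factors, fell on VN and VNP2 (-1.6 and -1.69, adjusted p = 2.19e-07 and 1.08e-07), and so did LAMB1, a laminin chain (-0.685 and -0.461, adjusted p = 0.000101 and 0.00108). The fibrillar collagen gene COL1A1 fell on VN (-0.538, adjusted p = 0.000392) and on VNP2 (-1.41, adjusted p = 3e-07) and was lower on VNP2 than on VN (-0.868, adjusted p = 4.27e-05). COL5A1 fell on both as well (-0.281 and -0.818, adjusted p = 0.002 and 8.6e-07). FN1 (fibronectin) was lower on VNP2 than on VN (-0.725, adjusted p = 3.53e-06), whereas the chemokine CXCL12 was higher (0.88, adjusted p = 4.52e-05). DLL1, a Notch ligand, rose on VN by 0.608 (adjusted p = 2.39e-05) and on VNP2 by 0.353 (adjusted p = 0.000727).

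RECK works with a receptor complex for WNT7 and restrains several proteases. Of its 13 listed partners and substrates found in the annotation, 12 were tested. On VN 1 was higher and 2 lower (median 0.0333), on VNP2 4 were higher and 1 lower (median 0.12), and on VNP2 against VN 1 was higher and 1 lower (median 0.0969). ADGRA2, the receptor that works with RECK, was lower on VN (-0.276, adjusted p = 0.0207), and the WNT co-receptor LRP5 was higher on VNP2 than on Matrigel (0.361, adjusted p = 0.00179) and than on VN (0.468, adjusted p = 0.00057). GPC6, a glypican, was lower on VN (-0.175, adjusted p = 0.0196) and VNP2 (-0.267, adjusted p = 0.0016).

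Factors known to act on MMP and TIMP transcription made up the last list, and all 29 were tested. On VN 13 were lower and none higher (median -0.121), on VNP2 13 were lower and 6 higher (median -0.0946), and on VNP2 against VN 7 were higher and none lower (median 0.142). The AP-1 subunits FOSL1 and FOSL2 fell on VN (-2.11 each, adjusted p = 1.94e-05 and 2.55e-05) and on VNP2 (-1.69 and -2.73, adjusted p = 5.38e-05 and 3.25e-06). EGR1, an immediate early factor, fell on both (-1.58 and -0.893, adjusted p = 0.000226 and 0.00523), and so did TGFB2, a growth factor (-1.4 and -1.27, adjusted p = 1.35e-06 and 1.56e-06). Higher on VNP2 than on VN were EGR1 (0.69, adjusted p = 0.0433), FOS (0.642, adjusted p = 0.0218) and the ETS factor ETV5 (0.614, adjusted p = 4.52e-05).

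**Figure D4:**
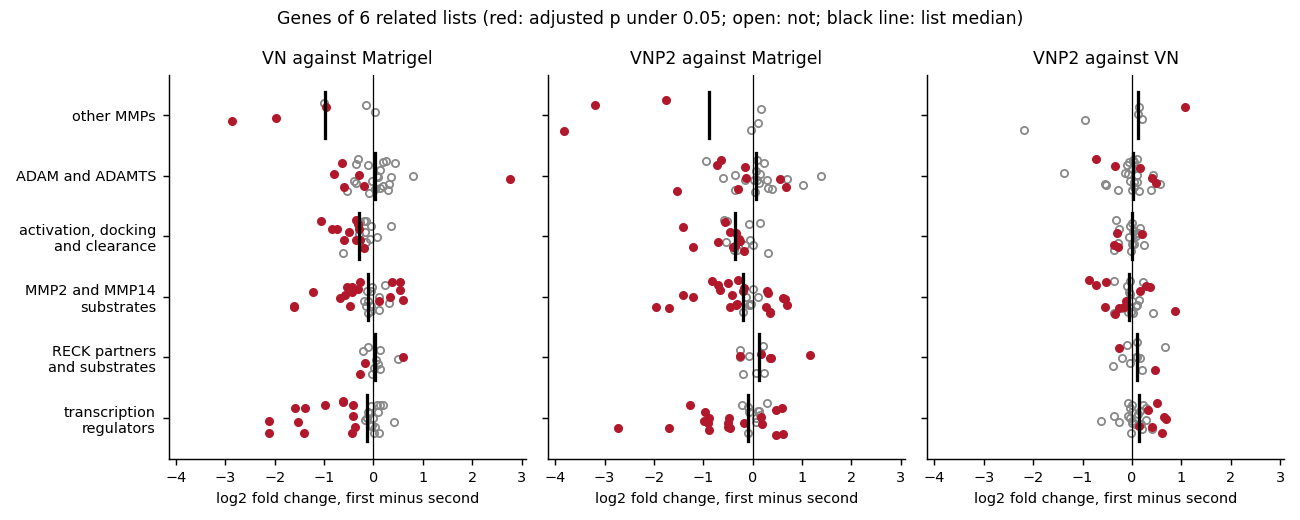
Log2 fold change (horizontal axis, the first substrate minus the second) of the tested genes of the 6 lists, with genes at an adjusted p under 0.05 in red, others open, and list medians as black lines. In the list of activation, docking and clearance genes all 11 red points lie below 0 on each vitronectin substrate against Matrigel.

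The remaining marker lists were read in the same way, with counts against Matrigel. Of all tested genes 5.66% were higher and 9.6% lower on VN, and 7.44% and 9.13% on VNP2. Of the smooth muscle and pericyte list 8 genes were tested, and VN had 4 lower whereas VNP2 had 4 lower and 1 higher. Neuron markers had 5 of 10 higher on each substrate and none lower. Of 7 tested radial glia and neural progenitor genes, VN had 2 higher and 2 lower and VNP2 had 3 higher and 2 lower. Of 6 tested neural crest genes, VN had 1 lower, and VNP2 had 2 higher and 1 lower. For astrocyte genes 1 of 4 tested was lower on each, and for endothelial genes 2 of 6. Of 4 tested oligodendrocyte genes 1 was lower on VN and 2 were lower on VNP2, with OPALIN at 0. Of 5 tested genes of choroid plexus and meninges, VN had 1 higher and 1 lower, and VNP2 had 2 higher and 1 lower. Of 7 pluripotency genes VN had 1 lower, and VNP2 had 1 higher and 3 lower.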

How the data were processed

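RNA-seq of H9-derived OPCs on Matrigel (2 libraries), VN (3) and VNP2 (3) was used. The authors trimmed reads with Trim Galore and quantified them with Salmon against GENCODE v32, which gave the deposited estimated counts, TPM values and effective lengths per transcript. The authors also deposited normalized counts per gene, a signal made with tximport and DESeq2 1.27.12 as listed in the submitters' processing notes, used here for checks and an alternative. The strand setting of the quantification was not given in the sources used here.

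Transcripts were matched by identifier to GENCODE v29 (GRCh38; 205225 of 226608, holding 98.79 to 98.88% of the estimated counts), so transcripts that only the newer release holds were left out. Estimated counts were summed over 58217 genes, rounded, and modelled in edgeR 4.0.16 (R 4.3.3), with an offset for each gene's mean transcript length, TMM normalization, filterByExpr (minimum count 10, minimum total 15; 18201 genes kept) and all 8 libraries in 1 quasi-likelihood fit without a block. Tests were two-sided, p-values were adjusted by Benjamini-Hochberg over all tested genes within each comparison, and calls were made at an adjusted p under 0.05. Levels between genes were compared in TPM summed per gene. TPM carries no TMM scaling, so small differences between substrates can differ between TPM and normalized counts. For the 10 genes, mean normalized counts equalled those of the authors' table (ratio 1). The labels do not say whether replicates came from separate cultures or differentiations, so p-values measure only the spread between these libraries. A count of 100 carries a sampling error of 10%, which bears on MMP17 and TIMP4.

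Alternatives were DESeq2 1.42.0, RLE normalization, no length offset, no filter, a minimum of 50 counts per library, a block for replicate number, a fit to a single pair of substrates, limma 3.58.1 on log2-transformed normalized counts of the authors (pseudocount 1 or 0.5, mean of at least 10 or no filter), TPM from protein-coding transcripts, and each library left out. The fits were tested on simulated data. The 10 genes, the 6 related lists and the 12 marker lists were chosen with earlier results of these data known. Named from each list and comparison were at most 3 called genes with the largest log2 fold change and a mean normalized count of at least 100. The listed names GPR124 and GDE2, are older names of ADGRA2 and GDPD5 and were counted once. Promoter sequences came from RefSeq (GRCh38.p14), and no window was searched for MMP2, MMP16, MMP17 and TIMP2. Tables were handled in Python 3.11.15 with pandas 2.3.3.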

Additional observations from a re-analysis of the deposited data

How the results depend on the processing

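The falls of MMP2 and TIMP3 on both vitronectin substrates and of TIMP1 on VN kept their calls under all 18 alternatives, with log2 fold changes of -0.45 to -0.311, -0.692 to -0.577 and -0.477 to -0.373. The number of the 10 genes called ran from 2 to 6 on VNP2 against Matrigel, from 0 to 3 on VNP2 against VN, from 3 to 5 on VN against Matrigel and from 4 to 6 across the substrates when each library was left out. In these fits 8.57 to 19.9% of all genes were called on VNP2 against Matrigel and 3.02 to 11% on VNP2 against VN. The shares were 6.33 to 21.5% on VN against Matrigel and 10 to 27.4% across the substrates. Correlations of deviations from the group means were -0.133, 0.0112 and -0.132 between same-numbered VN and VNP2 libraries. They were 0.161 and -0.0959 between Matrigel and VN, and -0.0507 and 0.0343 between Matrigel and VNP2. Deviations of the 2 Matrigel libraries mirror each other, so these values cannot settle whether replicate numbers pair the libraries. With a replicate block 5 of the 10 genes were called across the substrates, 3 on VN and 7 on VNP2 against Matrigel and 2 on VNP2 against VN. The added call was MMP17 on VNP2 (0.532, adjusted p = 0.0497), and TIMP2 lost its call on VN (-0.0999, adjusted p = 0.0624). Of all genes 21.9, 18.6, 17.4 and 6.3% were called with the block, in the order of the comparisons named.

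Signs turned only for differences that had not passed the test. Leaving out each library moved the VN against Matrigel value from -0.271 to 0.0214 for MMP14, from -0.0312 to 0.0172 for MMP15, from -0.329 to 0.0122 for TIMP4 and from -0.0202 to 0.497 for MMP17, and the VNP2 against VN value from -0.0871 to 0.00982 for MMP14 and from -0.0252 to 0.0275 for TIMP3. The last was also -0.000455 in DESeq2, -0.000467 with RLE and -0.0165 with no length offset. With protein-coding transcripts only, the mean level on Matrigel, VN and VNP2 was 10.9, 10.9 and 9.52 TPM for MMP14, 1.65, 2.37 and 3.34 for MMP17 and 5.84, 6.39 and 6.19 for RECK, and on 1 substrate each 13.2 for MMP16 (VNP2) and 107 for TIMP2 (Matrigel). The cause of these changes was not tested. Of the log2 fold changes, 286 of 300 kept direction and side of the threshold under the alternatives that kept all libraries, or all of the pair, and 198 of 240 with a library left out. These shares also count differences that had not passed the test and stayed so, whereas only called differences can lose a call. A call was lost 8 times under the alternatives that kept all libraries, or all of the pair, and more often with a library left out. The 2 Matrigel libraries limit every comparison with that substrate.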

Other observations

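The estimates per transcript differed between genes in how firmly they name 1 form. TIMP3 and TIMP4 came from a single transcript, and MMP15-201, MMP16-201 and TIMP2-201 held at least 97.4% of their gene's TPM in every library. MMP2-201 held 72.0 to 78.8% and the shorter coding form MMP2-203 held 14.1 to 27.1%. For RECK, the non-coding RECK-203 held 27.1 to 31.5% on Matrigel, 20.7 to 24.9% on VN and 18.1 to 23.1% on VNP2, while the coding RECK-201 held 60.0 to 60.7%, 63.5 to 69.7% and 67.6 to 70.3%, so neither share overlapped between Matrigel and the other substrates.

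For MMP17, MMP17-201 was listed at 0 in both Matrigel libraries and had 69.9 to 110 estimated counts on VN and 103 to 140 on VNP2. MMP17-206 had 59.1 to 69.8 on Matrigel, 0 to 39.4 on VN and 0 to 20.4 on VNP2. MMP14 carried 2 non-coding forms whose shares varied within groups, from 0 to 28.0% for the shorter and from 0 to 36.9% for the longer over all libraries. These splits of reads among overlapping transcripts are model estimates without an error here, and no test was made of them.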
